A study of Mus musculus with 6 samples.

Results

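Adhesion G protein-coupled receptors are described here gene by gene in cultured satellite cells, the resident stem cells of mouse muscle. The family was taken as every gene of the deposited table whose symbol is Adgr followed by 1 letter and a number, which gave 23 genes of 27366 features. Only the symbol entered that rule, but the family was taken up after values of these libraries were known. The differences between the labelled groups are therefore given as a description of these libraries, with p-values from tests across the whole table. The Celsr genes, adhesion receptors that carry another symbol, are given with the partner genes.

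RNA was sequenced from 6 libraries of satellite cells taken from skeletal muscle and kept until day 4 in growth medium with 20% fetal bovine serum and basic FGF. The labels give 3 libraries of Islr knockout cells and 3 libraries of control cells, numbered 1 to 3 in both groups. Islr is a secreted leucine-rich repeat protein, and the series text has the cells separated by flow sorting on whether they held Islr. The sources used here do not give the allele, a Cre driver, the strain or the age of the mice. They also do not say whether libraries came from separate animals, so a p-value here covers the spread between libraries, part of which may be technical.

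Values are scaled reads, the reads of a gene divided by 1 size factor per library. Levels between genes are compared as FPKM, reads corrected for transcript length and depth, which the authors deposited beside them. The libraries held 16456917 to 20124943 reads on features in the knockout group and 16776805 to 20531276 in the control group.

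For Islr itself the libraries labelled knockout 1, 2 and 3 held 256.7, 7.381 and 10.881 scaled reads, against 181.1, 12.8 and 1579.3 for those labelled control 1, 2 and 3. The library labelled knockout 1 was above 2 of the 3 control libraries, and the library labelled control 2 lay close to knockout 2 and 3. Both levels go against the labels, so groups are named below as the libraries are labelled and every direction rests on those labels. The libraries also differed widely in Myog. Myog, a transcription factor of differentiating myoblasts, had 37227.7, 1998.3 and 5737.4 scaled reads in the knockout libraries, against 43369.9, 417.2 and 43260.6 in the control libraries. Pax7, the defining transcription factor of satellite cells, had 1558, 1667 and 1319 scaled reads in the knockout libraries, against 1233, 2729 and 1634 in the control libraries. Between numbers neither gene passed, with an adjusted p of 0.157 for Myog and 0.284 for Pax7 (limma F test). Within number 3, Myog was at 5737.4 in knockout against 43260.6 in control.

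Adhesion receptors carry a long extracellular part with domains that bind matrix or neighbouring cells, followed by 7 membrane helices. Most are cut into 2 fragments at a site within the GAIN domain just outside the membrane, and the exposed end of the membrane fragment can act as a tethered agonist that starts G protein signalling. In muscle, members of the Adgrb group have been tied to myoblast fusion and Adgrg1 to muscle hypertrophy after mechanical load.

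A run of 3 neighbouring members on chromosome 8 includes Adgrg3, the member with the smallest p between numbered libraries, and all 3 share 1 pattern over those libraries, so their promoters are shown first. They are Adgrg5, Adgrg1 and Adgrg3, which all lie on the plus strand. Adgrg1 ended 3.5 kb before Adgrg3 with no gene of the table between them, and Adgrg5 ended 31.5 kb before Adgrg1. The sequences are from RefSeq on GRCm38.p6, run from 250 bases before to 50 bases after the start of transcription, and have matches to the E-box letters CANNTG, read on both strands, in capitals.
Adgrg5 (chr8:94923444-94923743): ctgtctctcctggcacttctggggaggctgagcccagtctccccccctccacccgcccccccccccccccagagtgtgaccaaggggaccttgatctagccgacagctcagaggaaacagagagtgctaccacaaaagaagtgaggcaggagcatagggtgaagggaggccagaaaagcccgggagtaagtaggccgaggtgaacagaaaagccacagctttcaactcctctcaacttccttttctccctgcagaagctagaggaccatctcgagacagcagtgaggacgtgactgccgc
Adgrg1, first start (chr8:94976859-94977158): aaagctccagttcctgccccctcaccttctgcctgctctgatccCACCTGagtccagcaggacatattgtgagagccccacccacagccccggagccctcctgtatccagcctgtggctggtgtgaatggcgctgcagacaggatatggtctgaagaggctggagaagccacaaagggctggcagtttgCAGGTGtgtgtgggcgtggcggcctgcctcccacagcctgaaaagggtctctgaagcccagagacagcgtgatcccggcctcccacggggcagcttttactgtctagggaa
Adgrg1, second start (chr8:94984149-94984448): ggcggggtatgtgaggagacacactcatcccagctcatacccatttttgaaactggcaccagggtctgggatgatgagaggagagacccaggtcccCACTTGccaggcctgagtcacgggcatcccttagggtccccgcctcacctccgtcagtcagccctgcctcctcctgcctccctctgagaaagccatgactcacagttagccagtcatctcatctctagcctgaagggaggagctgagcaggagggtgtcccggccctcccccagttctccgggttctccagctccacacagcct
Adgrg3 (chr8:95017442-95017741): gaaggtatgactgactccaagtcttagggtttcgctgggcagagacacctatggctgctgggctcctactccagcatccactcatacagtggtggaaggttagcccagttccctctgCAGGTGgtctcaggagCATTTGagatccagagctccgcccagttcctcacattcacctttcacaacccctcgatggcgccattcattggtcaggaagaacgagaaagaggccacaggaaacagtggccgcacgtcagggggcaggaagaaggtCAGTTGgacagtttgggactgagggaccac
The Adgrg3 window held 3 matches, the windows of Adgrg1 held 2 and 1, and the Adgrg5 window held 0. Of all 32851 promoter windows of this length, 72.3% held at least 1 match, as did 14 of the 21 windows that belong to family members. The form CAGCTG was in 16.3% of all windows, in 4 of the 21 and in none of the 4 shown. A match is a description of the letters and not of a site in use, and its absence says only that these letters are not in the window. The table of promoters had an entry for 17 of the 23 members.

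Reads were found for 21, 21 and 22 members in the knockout libraries, against 20, 21 and 22 in the control libraries. Together the members summed to 6981.0, 7285.6 and 6117.4 scaled reads in the knockout libraries, against 5824.9, 8736.6 and 5516.0 in the control libraries. The sums of the groups overlapped. The log2 ratio of knockout to control was 0.26 in number 1, -0.26 in number 2 and 0.15 in number 3, and 0.02 for the group means, with an SD of 0.28 over the numbers. A total of 17 members had a mean of at least 10 scaled reads, 4 had a mean of 1 to 10, and Adgrg7 and Adgrg4 were below 1. Adgrg7 had 1.14 scaled reads in knockout 1 and 1.70 in control 3, and Adgrg4 had 0.84 in knockout 3, each from 1 or 2 reads, and both had 0 reads elsewhere. A count of 0 allows up to 3 reads, which is 2.51 to 3.50 scaled reads depending on the library, for counting error only.

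Per length, Adgre5 and Adgra3 were the most abundant members. Adgre5 encodes CD97, a receptor for Cd55 and Thy1, and averaged 29.7 FPKM over the 6 libraries, with a range of 20.0 to 46.9 FPKM. Adgra3, whose zebrafish counterpart acts in planar cell polarity, averaged 22.3 FPKM with a range of 14.5 to 32.2 FPKM. These ranges overlapped, so the order of Adgre5 and Adgra3 was not resolved. A middle group followed with Adgrl2 at 6.92, Adgrg1 at 6.70, Adgrg3 at 5.86, Adgrl1 at 5.15 and Adgra2 at 3.56 FPKM. Adgrl3 averaged 1.43 FPKM, and each of the other 15 members was below 1 FPKM. Of the 22 pairs of neighbours in this order, 3 kept their order in all 6 libraries, namely Adgra3 above Adgrl2, Adgrl1 above Adgra2, and Adgra2 above Adgrl3. The ranges were apart in 2 of these pairs, Adgra3 with Adgrl2 and Adgra2 with Adgrl3. Scaled reads per kilobase of annotated exon gave nearly the same order over the 23 members (Spearman correlation 0.975, a description across genes), with Adgrl1 at place 3 in place of 6 and Adgrl2 at place 6 in place of 3.

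**Figure D1:**
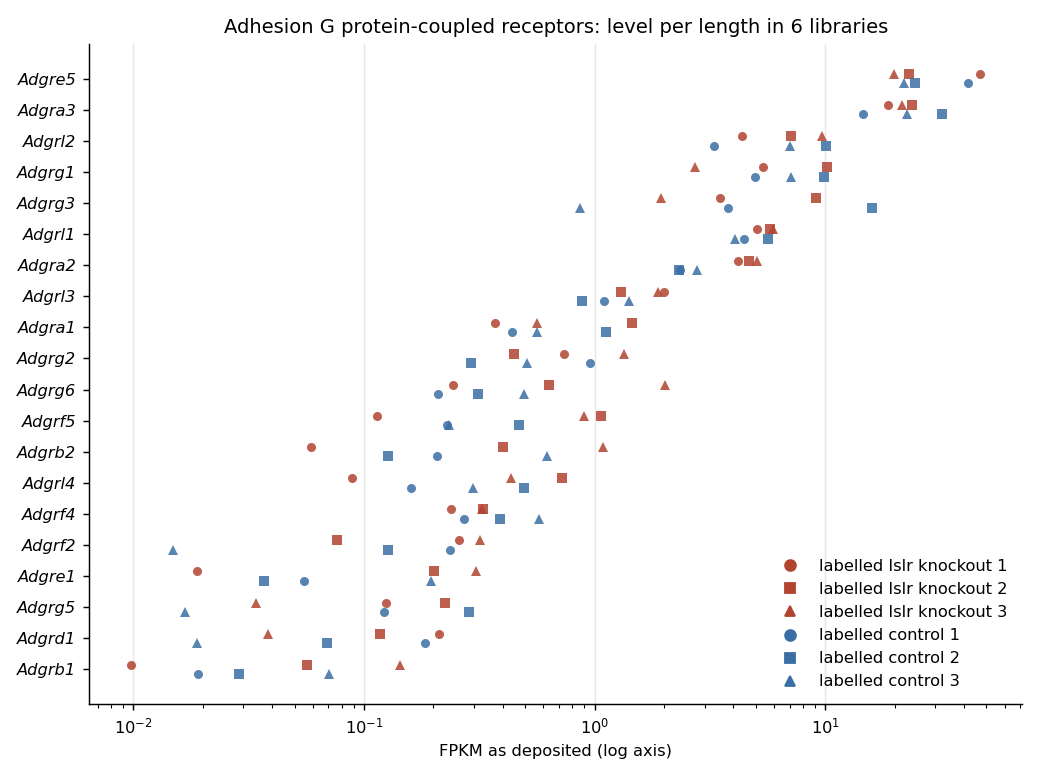
Level in FPKM (log axis) of the 20 members with reads in all 6 libraries, 1 row per gene, with a point for each library by labelled group. Adgre5 at a mean of 29.7 and Adgra3 at 22.3 FPKM stand above Adgrl2 at 6.92 FPKM, and the libraries of a single gene often spread as widely as the distance to its neighbours in the order.

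Between the labelled groups, no member passed an adjusted p of 0.05. The test was limma on log2(scaled reads + 1) over the 20344 features with a mean of at least 1, with Benjamini-Hochberg adjustment, and it called 0% of all features and 0 of the 21 members tested. At an unadjusted p under 0.05, 1 member was higher in the knockout libraries, Adgra2, where 1.15% of all features were, and 0 were lower, where 0.211% were. On recovered reads, edgeR gave 1 of 18 members at that unadjusted level and DESeq2 gave 2 of 23 (1.14% and 1.17% of all features tested), and each gave 0 after adjustment. The median log2 fold change was 0.19 over the members, against 0.03 over all features, and 16 of 21 members were above 0, where 53.0% of all features were. All fold changes are knockout over control on the log2(scaled reads + 1) scale, which understates the change of low genes. Without the library labelled knockout 1, or without the one labelled control 2, whose Islr levels go against their labels, 0 members passed the adjusted threshold. The median over the members was 0.42 in both cases. The median over all features was not taken for these fits, so a shift of the whole table cannot be told from one of the members. Markers of other cell types also had values above 0, with 10 of 10 endothelial markers at a median of 0.84, 10 of 10 fibroblast markers at 0.93, 10 of 11 macrophage markers at 0.76 and 8 of 10 Schwann cell markers at 0.62. Pericyte and smooth muscle markers had 6 of 10 above 0 at a median of 0.40, and adipocyte markers 2 of 2 at 0.04. Of the satellite cell and myoblast markers 1 of 10 was above 0, with a median of -0.24. Of the markers of differentiating myocytes 3 of 10 were, with a median of -0.22. No marker of these lists passed the adjusted threshold (limma), and their part in the values of the members was not tested.

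Adgra2 had the smallest p of the family. It encodes GPR124, which acts with Reck as a co-activator of Wnt7 signalling in brain endothelium, and lies on the plus strand of chromosome 8 at 27085583 to 27123436 (GRCm38). It had 450.64, 493.58 and 492.97 scaled reads in knockout 1, 2 and 3, against 253.31, 262.20 and 279.55 in control 1, 2 and 3. Each knockout library was above each control library, and neither group spread by more than a small part of the distance between them. The groups did not overlap for Adgra2 alone among the 21 members, where 2.65% of all features did not overlap with knockout higher and 2.11% with knockout lower. The means were 479 ± 24.6 scaled reads in knockout and 265 ± 13.3 in control (SD, n = 3 each).

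The log2 fold change of Adgra2 was 0.85 ± 0.25 (SE, limma) with a 95% interval of 0.28 to 1.42, an unadjusted p of 0.00816 and an adjusted p of 1. The log2 ratios within numbers 1, 2 and 3 were 0.83, 0.91 and 0.82. Over all settings tried the log2 fold change stayed between 0.82 and 0.90, and the adjusted p between 0.4025 and 1. Without knockout 1 the log2 fold change of Adgra2 was 0.90 with an unadjusted p of 0.016, and without control 2 it was 0.85 with an unadjusted p of 0.0158, and neither passed after adjustment (limma). The authors' deposited table gives Adgra2 a log2 fold change of 0.85 with a p of 0.00517 and an adjusted p of 0.9998. Of the exon bases of Adgra2, 73 of 5775 are shared with Brf2 on the opposite strand, and the sources used here do not say how counting treated strand. Brf2 had 248.71, 301.68 and 333.11 scaled reads in the knockout libraries, against 396.63, 336.78 and 366.49 in the control libraries, so it was not higher in the knockout libraries.

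Several members ran in 1 direction in every number without passing the test. Adgra2, Adgrl3, Adgrg6 and Adgrd1 were higher in knockout in each of the 3 numbers, 4 of 21 members where 12.2% of all features were. Adgrf4 was lower in each, where 12.1% were. The directions of Adgrd1 and Adgrf4 rest on few reads, which are given below. Adgrl3, a latrophilin that binds teneurins and FLRT proteins, had 255.56, 161.45 and 215.94 scaled reads in the knockout libraries, against 138.87, 116.53 and 167.05 in the control libraries. The groups overlapped, since knockout 2 was below control 3. The means were 211 ± 47.2 in knockout and 141 ± 25.3 in control (SD, n = 3 each), with a log2 fold change of 0.57 ± 0.34 (SE, limma) and an adjusted p of 1.

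Adgrg6 encodes GPR126, the receptor that Schwann cells need for myelination and that binds collagen IV, laminin and the prion protein. It had 29.66, 75.65 and 221.80 scaled reads in the knockout libraries, against 25.55, 39.62 and 56.25 in the control libraries. The highest value was knockout 3, and knockout 1 lay among the controls. The means were 109 ± 100.3 in knockout and 40.5 ± 15.4 in control (SD, n = 3 each), and the log2 ratios by number were 0.21, 0.92 and 1.96. The log2 fold change was 1.03 ± 0.72 (SE, limma) with an adjusted p of 1. With 1 library left out the log2 fold change of Adgrg6 ran from 0.30 without knockout 3 to 1.73 without knockout 1, and it was 0.56 without both libraries of number 3 in the fit with the block. The authors' deposited table gives Adgrg6 a log2 fold change of 1.43 with an unadjusted p of 0.0452 and an adjusted p of 0.9998. The 10 Schwann cell markers summed to 3396.4, 2401.5 and 2616.4 scaled reads in the knockout libraries, against 2648.6, 996.4 and 2310.6 in the control libraries, with none of the 10 at 0 in any library. Erbb3 alone held 2629.7, 251.86 and 374.96 of these in the knockout libraries, against 1862.03, 282.01 and 942.63 in the control libraries. Other markers had another order, such as Sox10 with 31.94, 293.38 and 276.2 in the knockout libraries, against 51.11, 83.9 and 43.47 in the control libraries. Sox10 was, like Adgrg6, higher in knockout 2 and 3 than in any control library. Of the 10 markers 8 had a log2 fold change above 0, with a median of 0.62, and their part in the result was not tested.

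**Figure D2:**
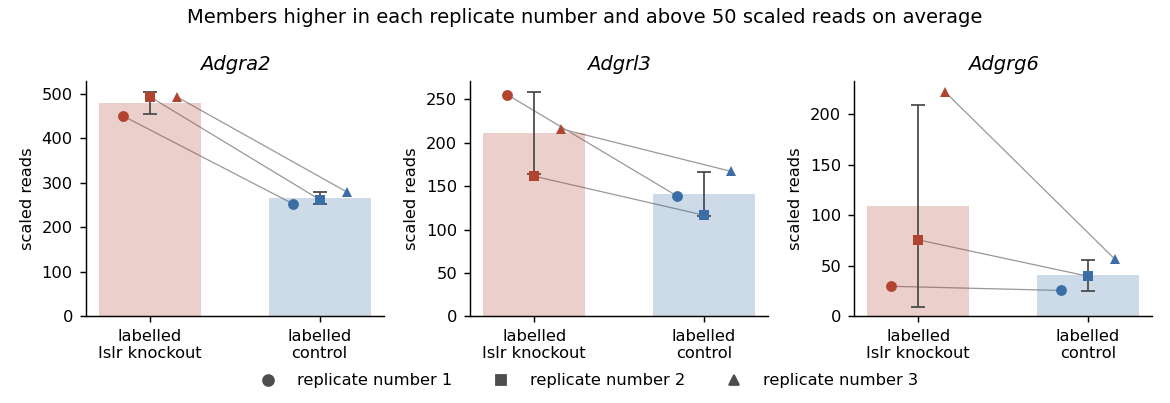
Scaled reads of Adgra2, Adgrl3 and Adgrg6 by labelled group, with bars at the mean, error bars of 1 SD (n = 3 each) and a point for each library. The groups are apart for Adgra2, at 479 ± 24.6 in knockout and 265 ± 13.3 in control, and overlap for Adgrl3 and Adgrg6.

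With the replicate number as a block, Adgra2 had a standard error of 0.21 and an unadjusted p of 0.00341, and Adgrg6 a standard error of 0.43 and an unadjusted p of 0.0399. Those were 2 of 21 members at an unadjusted p under 0.05 with knockout higher, where 3.66% of all features were, and both had an adjusted p of 0.9204 (limma). No member was lower at that level, where 0.924% of all features were. The authors' deposited list of gene ontology terms names Adgra2 in 33 terms and Adgrg6 in 21. Cell surface, with 42 listed of 1041 annotated genes and a p of 5.4e-11 in the authors' deposited table, holds both. Angiogenesis, with 37 of 518 genes and a p of 2.6e-05 in that deposited table of the authors, holds Adgra2, and laminin binding, with 4 of 31 genes and a p of 0.00065, holds Adgrg6. The authors' adjusted p for cell surface, angiogenesis and laminin binding were 1.28e-08, 0.0075 and 0.025, and other terms naming these members reached 0.21. Of the genes in the authors' deposited comparison, 0 had an adjusted p under 0.05 and 318 had an unadjusted p under 0.05. The genes behind these terms were chosen on these same libraries, so they are not independent of the values above.

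The most abundant members had like means in both groups. Adgre5 had 2642.25, 1268.55 and 1008.55 scaled reads in the knockout libraries, against 2335.31, 1433.37 and 1153.15 in the control libraries. Its means were 1639.8 ± 878 in knockout and 1640.6 ± 618 in control (SD, n = 3 each), with a log2 fold change of -0.06 ± 0.41 (SE, limma) and a 95% interval of -0.99 to 0.86. Both libraries of number 1 were the highest, and within every number the 2 groups were close. With the replicate number as a block, the standard error of Adgre5 was 0.19 (limma). Adgra3 had 1575.54, 1962.33 and 1630.41 scaled reads in the knockout libraries, against 1216.54, 2818.96 and 1775.32 in the control libraries. The control libraries spread more widely than the knockout libraries and enclosed them, and the log2 fold change was -0.09 ± 0.33 (SE, limma).

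Of the L group, Adgrl1 and Adgrl2 are latrophilins that bind teneurins and FLRT proteins. Adgrl1 had 780.36, 862.61 and 815.21 scaled reads in the knockout libraries, against 681.04, 903.14 and 582.97 in the control libraries. Adgrl2 had 494.00, 786.96 and 987.62 in the knockout libraries, against 371.07, 1192.14 and 746.61 in the control libraries. Adgrl4, which is no latrophilin and is known from endothelial cells, had 6.84, 54.43 and 30.13 in the knockout libraries, against 12.22, 39.62 and 21.31 in the control libraries. The groups overlapped for each of these 3 genes, and number 1 held the lowest libraries of Adgrl2 and Adgrl4. The log2 fold changes were 0.20 ± 0.25 for Adgrl1, 0.07 ± 0.44 for Adgrl2 and 0.06 ± 0.81 for Adgrl4 (SE, limma).

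Of the G group, Adgrg1 encodes GPR56, a receptor of collagen III. It had 365.08, 676.25 and 165.72 scaled reads in the knockout libraries, against 335.52, 695.71 and 448.30 in the control libraries. Adgrg3, which encodes GPR97 and is known from granulocytes, had 198.51, 505.58 and 98.76 in the knockout libraries, against 215.53, 948.59 and 46.02 in the control libraries. Both genes were highest in the libraries of number 2, in either group. The log2 fold change was -0.45 ± 0.51 for Adgrg1 (SE, limma) and 0.02 for Adgrg3 with a 95% interval of -2.77 to 2.81, and the sign for Adgrg3 depended on the test, with -0.57 in edgeR and -0.59 in DESeq2. Adgrg2, on the X chromosome and known from the epididymis, had 65.03, 38.75 and 106.30 in the knockout libraries, against 84.44, 26.80 and 41.76 in the control libraries. The Adgrg2 groups overlapped, with a log2 fold change of 0.49 ± 0.59 (SE, limma).

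The remaining members with a mean of at least 10 scaled reads were low. Adgrf5, which controls surfactant levels in the lung, had 18.25, 166.06 and 129.73 scaled reads in the knockout libraries, against 36.66, 78.08 and 34.94 in the control libraries. Adgra1 had 33.08, 126.39 and 45.20 in the knockout libraries, against 38.88, 103.72 and 46.88 in the control libraries. Knockout 1 was the lowest library of both genes, and the groups overlapped. Adgrb2, of the brain angiogenesis inhibitor group, had 5.70, 37.83 and 94.58 in the knockout libraries, against 20.00, 12.82 and 56.25 in the control libraries. Adgrf4 had 13.69, 18.45 and 16.74 in the knockout libraries, against 15.55, 23.31 and 30.68 in the control libraries. Adgrf4 thus had the lower scaled value in knockout within each number, while Adgrb2 had no common direction. Before scaling, Adgrf4 had 12, 20 and 20 reads in the knockout libraries, against 14, 20 and 36 in the control libraries. Its lower value in number 2 therefore came from the size factors alone. Adgrf2, which lies 16.7 kb from Adgrf4, had 15.97, 4.61 and 17.58 in the knockout libraries, against 14.44, 8.16 and 0.85 in the control libraries. Adgrd1 had 20.54, 11.07 and 3.35 in the knockout libraries, against 17.78, 6.99 and 1.70 in the control libraries. Before scaling these were 18, 12 and 4 reads, against 16, 6 and 2 reads. The log2 fold changes of these 6 genes ran from -0.44 for Adgrf4 to 0.92 for Adgrf2, with standard errors of 0.55 to 0.99, and the adjusted p was 1 for each (limma).

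Adgrf5 and Adgrl4 are known from endothelial cells and Adgre1 encodes F4/80, a macrophage marker. In bulk RNA, fewer cells of a type and less RNA per cell cannot be told apart. The 10 endothelial markers summed to 447.2, 1785.2 and 1629.6 scaled reads in the knockout libraries, against 458.8, 764.5 and 647.7 in the control libraries, and none of the 10 was at 0 in any library. Like Adgrf5, this sum was lowest in knockout 1 and highest in knockout 2. The single markers did not all follow the sum, and only Esam had both its lowest and its highest library there. Pecam1, Tie1, Cldn5 and Emcn were also highest in knockout 2, but lowest in control 1. Cdh5, Tek, Egfl7 and Vwf were highest in knockout 3, and Kdr was highest in knockout 1. Adgre1 had 1.14, 11.99 and 16.74 scaled reads in the knockout libraries, against 3.33, 2.33 and 11.08 in the control libraries. The 12 macrophage markers summed to 154.0, 700.2 and 1185.1 scaled reads in the knockout libraries, against 271.1, 255.2 and 410.8 in the control libraries. The sum, like Adgre1, was lowest in knockout 1 and highest in knockout 3. Of the 12 macrophage markers 7 were at 0 in some library, and Ptprc, which marks all leukocytes, was at 0 in knockout 2 and in all 3 control libraries. The part of these cell types in the values of the members was not tested. The other members with a mean of 1 to 10, Adgrg5, Adgrb1 and Adgrv1, did not go above 16.32 scaled reads in any library, and Adgrv1 had 0 reads in knockout 1 and control 1.

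**Figure D3:**
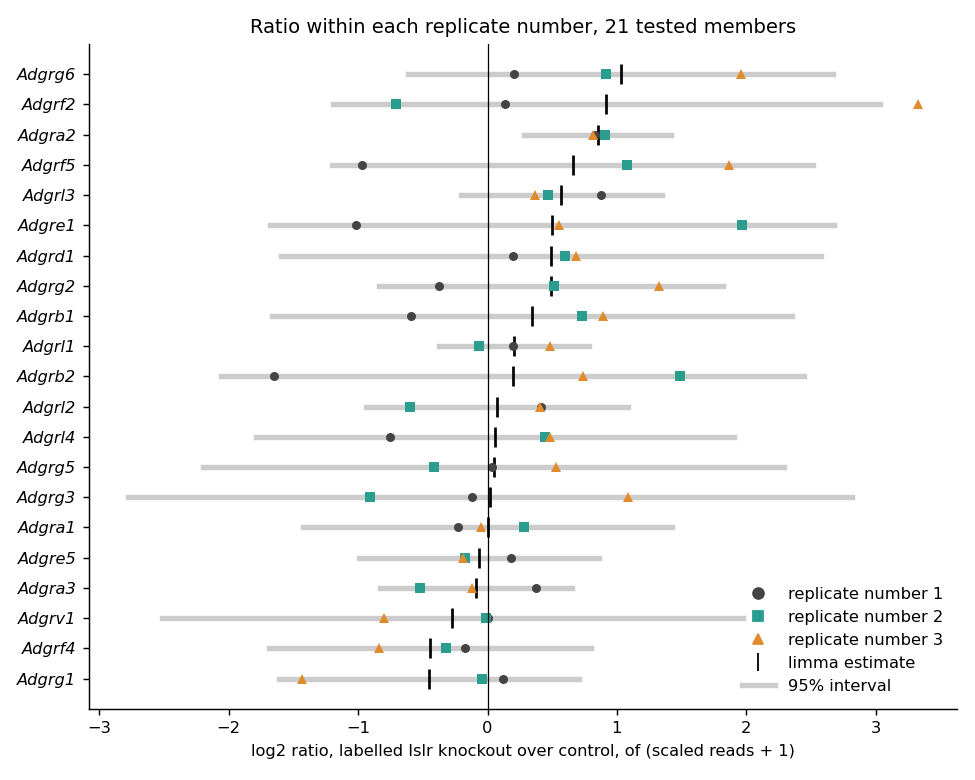
Log2 ratio of knockout to control for the 21 tested members, with a point for each replicate number and the limma estimate with its 95% interval. The intervals are from the fit without the replicate block, which does not pair the libraries of a number. Adgra2 has its 3 ratios close together at 0.82 to 0.91, while these intervals of the other 20 members include 0. With the block, Adgrg6 had an unadjusted p of 0.0399 and an adjusted p of 0.9204 (limma).

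More features were called between the numbered libraries than between the groups. An F test of the replicate number in limma, with the group in the model, passed an adjusted p of 0.05 for 2 of 21 members, Adgrg3 and Adgre5, where 6.35% of all features passed. At an unadjusted p under 0.05 there were 12 of 21 members, where 27.0% of all features were. Adgrg3 had an adjusted p of 0.014, and its highest library held 20.61 times the scaled reads of its lowest. It was called under 12 of the 14 settings tried and was lost without control 2, at an adjusted p of 0.0718, and without control 3, at 0.0615, the highest values over those settings. Adgre5 had an adjusted p of 0.0397 and was called under 6 of the 14 settings, with a range of 0.00125 to 0.336. The Adgre5 call was lost when any library but knockout 2 was left out, with adjusted p of 0.336, 0.189, 0.15, 0.0547 and 0.205 without knockout 1, knockout 3, control 1, control 2 and control 3. Among all members, 0 were called without control 2 or control 3, 1 without knockout 1, knockout 3 or control 1, and 3 without knockout 2. The share of all features was not counted for these fits, so a shift of the whole table cannot be told from one of the members. On recovered reads edgeR called 1 of 18 members, where 3.62% of all features were called, and DESeq2 called 5 of 19, where 17.5% were.

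Adgre5 shares 895 of its 3757 exon bases with Ddx39 on the opposite strand. Ddx39 had 3338.18, 5129.56 and 2653.19 scaled reads in the knockout libraries, against 4154.01, 6300.99 and 2648.07 in the control libraries. It was highest in number 2, where Adgre5 was highest in number 1, and reads from the shared bases cannot be told apart without strand. The next members by p were Adgrl2, with an adjusted p of 0.0797, and Adgra1, with 0.0871, which did not pass (limma). Adgrg1 had an adjusted p of 0.12 in the same test. For Adgra2 the same test gave 0.917.

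Members fell into several patterns over the numbers, which were sorted after their values had been seen. In 7 of 21 members both libraries of number 2 were above the other 4, where 11.5% of all features were. These were Adgra3, Adgrl1, Adgrg1, Adgrg3, Adgra1, Adgrl4 and Adgrg5. Adgre5 and Adgrd1 were highest in both libraries of number 1, where 13.2% of all features were, and Adgrb2 and Adgrb1 in those of number 3, where 15.8% were. In 8 of 21 members both libraries of number 1 were below the other 4, where 10.8% of all features were. Adgrg2 was lowest in both libraries of number 2, where 13.6% of all features were, and 4 members in those of number 3, where 13.3% were. Number 2 was also the number with the lowest Myog in both groups, at 1998.3 scaled reads in knockout 2 and 417.2 in control 2, and the 10 markers of differentiating myocytes summed to 8801.4 in knockout 2 and 4763.9 in control 2. Elsewhere these markers summed to 311941.1 and 29088.0 in knockout 1 and 3, against 273680.3 and 162710.9 in control 1 and 3. Their part in the pattern was not tested.

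The run on chromosome 8 whose promoters are printed above belongs to the pattern of number 2. Adgrg5, known from leukocytes, had 6.84, 11.99 and 1.67 scaled reads in the knockout libraries, against 6.67, 16.32 and 0.85 in the control libraries. Its neighbours Adgrg1 and Adgrg3 were likewise highest in knockout 2 and control 2, at 676.25 and 695.71 scaled reads for Adgrg1 and 505.58 and 948.59 for Adgrg3. The lowest library was number 3 for Adgrg5 and Adgrg3 in both groups, while the lowest control library of Adgrg1 was number 1. Adgre5 and Adgrl1 also lie on chromosome 8, 158.8 kb apart with 1 gene of the table between them, and they did not share a pattern, since Adgre5 was highest in number 1 and Adgrl1 in number 2.

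**Figure D4:**
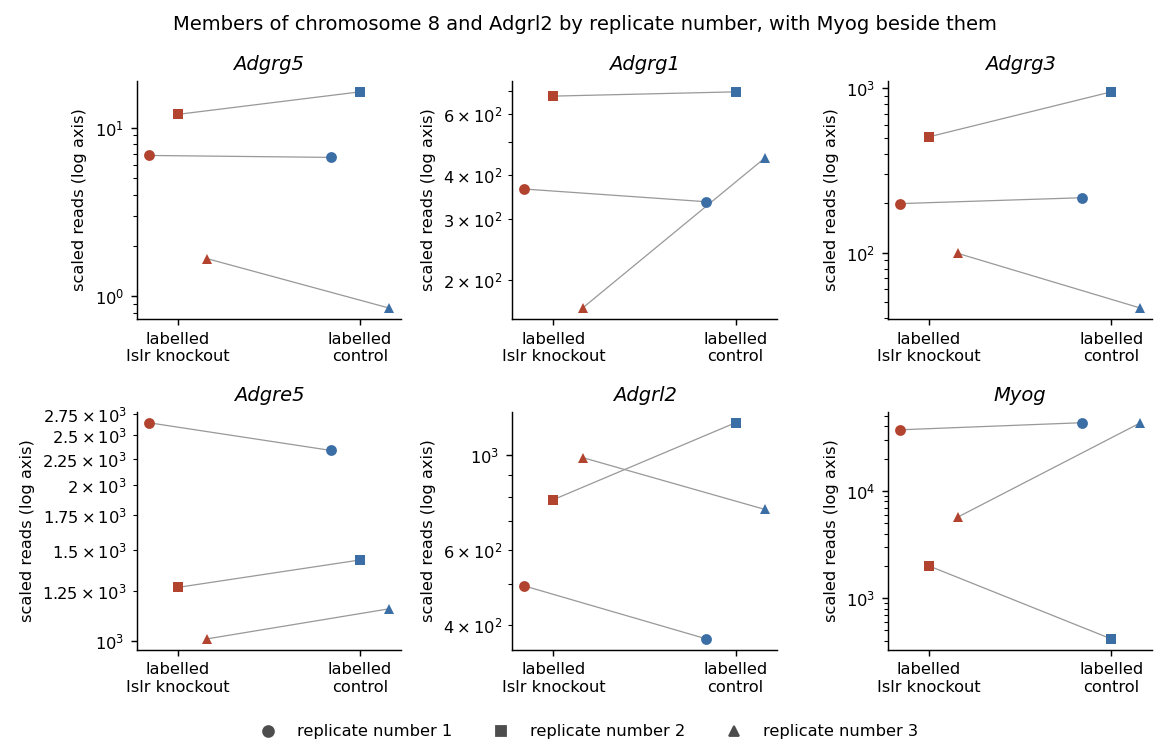
Scaled reads (log axis) in numbers 1, 2 and 3 of the knockout and control libraries for Adgrg5, Adgrg1, Adgrg3, Adgre5 and Adgrl2, with Myog beside them; circles, squares and triangles are numbers 1, 2 and 3, and a line joins the knockout and control library of a number. Adgrg5, Adgrg1 and Adgrg3 peak in number 2 in both groups, where Myog is at its lowest with 1998.3 in knockout 2 and 417.2 in control 2. Knockout 3 had a lower Myog than knockout 1, at 5737.4 against 37227.7, and each of these Adgrg genes was also lower there. A link to Myog was not tested.

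The known ligands, partners and effectors of the family were counted in 6 lists, of which 97 genes were tested. In the comparison of the groups 0 of the 97 passed an adjusted p of 0.05 in limma, where 0% of all features did, and edgeR and DESeq2 also called 0. At an unadjusted p under 0.05, 4 partner genes were higher in the knockout libraries, where 1.15% of all features were, and 0 were lower, where 0.211% were. In edgeR 5 of 89 and in DESeq2 4 of 100 partner genes were at that unadjusted level, where 1.14% and 1.17% of all features were. With the replicate number as a block, 12 of the 97 were at an unadjusted p under 0.05 with knockout higher, where 3.66% of all features were, and 0 were lower, where 0.924% were. The median log2 fold change was 0.24 over the 97 genes, against 0.03 over all features, and 76 of the 97 were above 0, where 53.0% of all features were. The groups did not overlap for 7 of the 97 with knockout higher, where 2.65% of all features did so. For 0 they did not overlap with knockout lower, where 2.11% did so. Apart from Reck, the genes named below for this comparison were picked by smallest p, which favours groups that lie apart. With both libraries of number 1 left out and the replicate block in the model, Itgb3 and Prickle2 passed the adjusted threshold, and no partner gene did under the other settings tried. The share of all features called in that smaller fit was not counted. Its calls are therefore not read as particular to these genes.

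Matrix and surface ligands of Adgrg, Adgre, Adgrf and Adgrd receptors numbered 18, of which 17 had a log2 fold change above 0, with a median of 0.46. Itgb3, the integrin beta 3 chain, had 523.7, 1459.5 and 1275.5 scaled reads in the knockout libraries, against 589.9, 419.5 and 435.5 in the control libraries. Itgav, the alpha V chain that pairs with it, had 3898.4, 4274.3 and 3735.4 in the knockout libraries, against 2364.2, 3329.4 and 1686.7 in the control libraries. The groups were apart for Itgav, while knockout 1 of Itgb3 lay below control 1. The log2 fold changes were 1.06 ± 0.40 for Itgb3 and 0.74 ± 0.29 for Itgav (SE, limma), with an adjusted p of 1 for each. The 10 fibroblast and fibro-adipogenic progenitor markers summed to 4511.0, 11173.4 and 11608.7 scaled reads in the knockout libraries, against 4306.2, 3040.4 and 7091.1 in the control libraries. Of these markers Dpp4 and Pi16 were at 0 in some control library, and their part in the values of the ligands was not tested.

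For the Wnt7 partners of Adgra2, 14 of 16 genes were above 0, with a median log2 fold change of 0.18. Reck, the membrane protein that Adgra2 binds, had 58.2, 97.8 and 121.4 scaled reads in the knockout libraries, against 31.1, 71.1 and 79.3 in the control libraries, with a log2 fold change of 0.65 ± 0.52 (SE, limma). Reck was named for its place beside Adgra2 after its values were seen. It was higher in knockout within each number, and the groups overlapped. Wnt7a, a ligand that stimulates satellite cell expansion in muscle, had 2.3, 31.4 and 51.1 in the knockout libraries, against 1.1, 5.8 and 4.3 in the control libraries, with a log2 fold change of 2.06 ± 1.07 (SE, limma) and an adjusted p of 1. Fzd2, a Wnt receptor, had 1332.5, 877.4 and 671.2 in the knockout libraries, against 1439.8, 971.9 and 1950.9 in the control libraries. Wnt7a was thus highest in knockout 2 and 3, and Fzd2 was lower in knockout within each number.

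The list of latrophilin ligands also held the Unc5 receptors, which were put there because they bind FLRT proteins. In this list 9 of 12 genes were above 0, with a median of 0.47. The log2 fold changes of Unc5a, Unc5b, Unc5c and Unc5d were 0.01, 0.52, 0.89 and 0.78 (limma). The genes below 0 were Tenm4, Flrt1 and Nrxn3. The smallest unadjusted p was that of Unc5c, at 0.234, followed by Tenm3, at 0.263 (limma). Unc5c, a receptor that binds netrin and FLRT proteins, had 21.7, 56.3 and 140.6 scaled reads in the knockout libraries, against 21.1, 38.5 and 32.4 in the control libraries. Tenm3, a teneurin, had 1059.9, 845.1 and 679.6 in the knockout libraries, against 609.9, 1032.5 and 374.2 in the control libraries. The groups overlapped for both. Of the Adgrb partners, which include the engulfment and fusion genes, 7 of 14 were above 0, with a median of 0.02. Dock5, a Rac exchange factor, had 823.7, 1013.0 and 1224.5 in the knockout libraries, against 616.6, 588.5 and 315.3 in the control libraries, with a log2 fold change of 1.05 ± 0.33 (SE, limma) and an adjusted p of 1. Its groups did not overlap. C1ql3, a C1q-like ligand, had 15.97, 11.07 and 35.99 in the knockout libraries, against 6.67, 5.83 and 8.52 in the control libraries, which were also apart.

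Planar polarity genes, with the Celsr receptors, had 8 of 12 above 0 and a median of 0.11. Prickle2, a core planar polarity gene, had 110.7, 115.3 and 379.1 scaled reads in the knockout libraries, against 77.8, 24.5 and 81.8 in the control libraries, with a log2 fold change of 1.63 ± 0.65 (SE, limma) and an adjusted p of 1. Celsr1 had 19.4, 22.1 and 11.7 in the knockout libraries, against 5.6, 14.0 and 3.4 in the control libraries. The groups were apart for Prickle2, and for Celsr1 knockout 3 lay below control 2. The last list held genes of G protein signalling. Grk3, a receptor kinase, had 14.8, 15.7 and 48.5 in the knockout libraries, against 6.7, 5.8 and 16.2 in the control libraries. Grk5, another receptor kinase, had 186.0, 333.1 and 310.5 in the knockout libraries, against 171.1, 205.1 and 168.8 in the control libraries. Both kinases were higher in knockout within each number, and both overlapped between the groups.

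**Figure D5:**
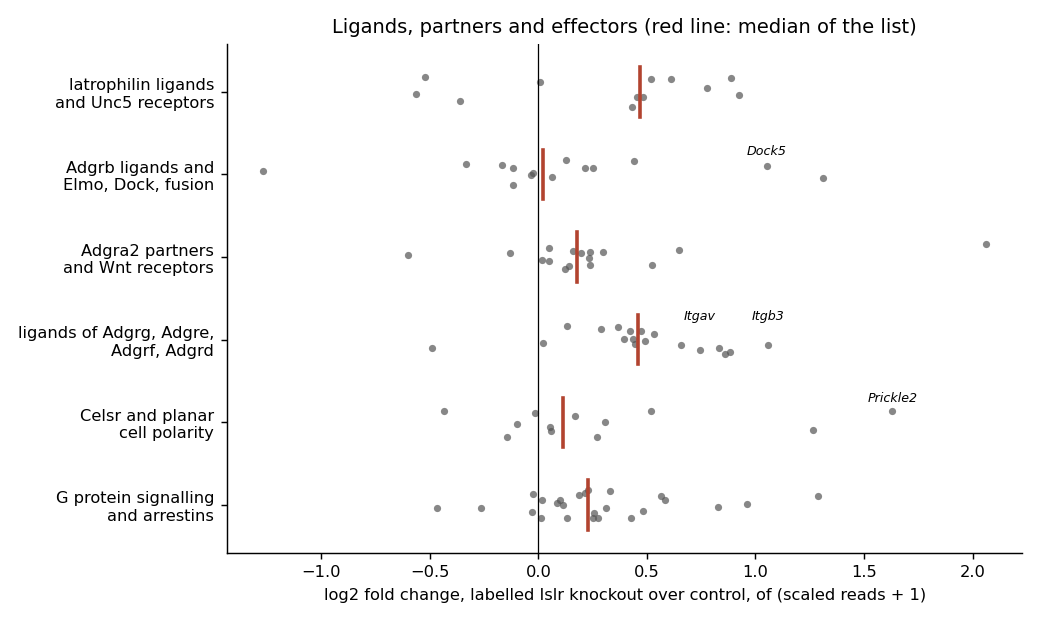
Log2 fold change of knockout over control for the 97 tested partner genes in 6 lists, with the median of each list as a red line and the genes at an unadjusted p under 0.05 named. The medians run from 0.02 for the Adgrb partners to 0.47 for the latrophilin ligands with the Unc5 receptors. No gene passed an adjusted p of 0.05.

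Between numbers, 7 of the 97 partner genes passed an adjusted p of 0.05 in the limma F test, where 6.35% of all features did. Wnt7b had 26.2, 372.7 and 78.7 scaled reads in the knockout libraries, against 32.2, 470.8 and 37.5 in the control libraries, with an adjusted p of 0.0085 (limma). It was highest in both libraries of number 2, as Adgrg3 was. Lama2, a laminin chain that Adgrg6 binds, had 3485.4, 945.6 and 1645.5 in the knockout libraries, against 1566.5, 620.0 and 989.5 in the control libraries, with an adjusted p of 0.0211 (limma). Cd55, the ligand of Adgre5, had 116.4, 147.6 and 463.7 in the knockout libraries, against 105.5, 38.5 and 306.8 in the control libraries, with an adjusted p of 0.0398 (limma). Cd55 was thus highest in number 3 and Adgre5 in number 1. Prnp, a ligand of Adgrg6, had 2434.6, 1244.6 and 2017.9 in the knockout libraries, against 2183.1, 587.3 and 1897.2 in the control libraries, with an adjusted p of 0.0412 (limma). Both ligands of Adgrg6 were lowest in number 2 in either group, where Adgrg6 itself was lowest in number 1.

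The other partner genes that passed were Gnas, Grk6 and Unc5b. Gnas, the stimulatory G protein alpha subunit, had 1464.9, 396.7 and 402.6 scaled reads in the knockout libraries, against 1241.0, 593.2 and 550.6 in the control libraries, with an adjusted p of 0.0255 (limma). Grk6, a receptor kinase, had 1166.0, 2587.8 and 1402.8 in the knockout libraries, against 1174.3, 2928.5 and 935.0 in the control libraries, with an adjusted p of 0.0352 (limma). Gnas was highest in number 1 and Grk6 in number 2. Unc5b, a netrin receptor that also binds FLRT proteins, had 5258.3, 6635.2 and 3484.3 in the knockout libraries, against 4240.7, 6992.0 and 1393.5 in the control libraries, with an adjusted p of 0.0459 (limma). Unc5b was likewise highest in number 2 and lowest in number 3. Leaving out 1 library moved the count of 7 to 1 without knockout 1 or control 1, 13 without knockout 2, 4 without knockout 3, 2 without control 2 and 3 without control 3.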

How the data were processed

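RNA was sequenced from 6 libraries. Tools listed in the submitters' processing notes, without roles, are edgeR 3.18.1, DESeq2 1.16.1, HTSeq, HISAT2 2.0.5 and Trimmomatic. The authors deposited 1 table of signal values per gene, counts divided by a size factor per library, with FPKM, log2 fold changes and p-values of their own comparison, per the file headers. Whole reads were recovered for 100.0% of values within 0.01, and 480 of 480 genes had the count in the authors' deposited count table. Of the lines, 36 were damaged and dropped. Control 1 was matched to a column name with 2 digits exchanged. Left unused were 6 further columns with a value per library.

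The fit was limma 3.58.1 (trend and robust) on log2(scaled reads + 1) for features averaging 1 or more, as a two-sided test, and Benjamini-Hochberg adjustment covered all of them. The planned test assumed scaled values, which is what the table holds. Alternatives were edgeR 4.0.16 and DESeq2 1.42.0 on recovered reads, other pseudocounts, filters and scalings, a replicate block, and libraries left out. On simulated data for the comparison of the groups, over 20437 genes, limma recovered 97% of changes of 2 on the log2 scale and 39% of changes of 1, with 10 false calls. Between numbers, over 20519 genes, it recovered 93% and 22%, with 7 false calls. These shares describe the simulated data only, and recovery at the spread of the sequenced libraries was not tested. Same-numbered libraries deviated from their group means together (correlations 0.689, 0.633 and 0.625 over 14280 features). Correlations between different numbers were -0.513 to -0.245, which adds little, since deviations from a group mean cancel within each group. The numbers were taken as pairs from the data, not from the labels. The replicate block and the F test between numbers use these same data.

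Members with a mean of at least 10, or called, were given with every library. Partner genes were named by smallest p in each list, up to 4 where called and otherwise 2. The members, lists and rules were chosen with earlier results of these data known. The count of 1 partner list is not reported here. Figures were drawn with matplotlib 3.10.9.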

Additional observations from a re-analysis of the deposited data

How the results depend on the processing

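In the comparison of the groups, the count of 0 members past the threshold was the same under every setting tried, the replicate block included, which changed no call. The median log2 fold change of the members ranged from 0.03 to 0.42 and kept its sign. With libraries left out, the median over all features was not taken beside it. The log2 ratio of family sums was 0.02, with 0.05 as the mean within numbers (replicate block), and -0.10 to 0.26 with 1 library left out. Partner genes called were 0, and 2 with both libraries of number 1 left out and the replicate block. Between numbers, the 2 called members became 1 with a pseudocount of 0.1, 1 with a mean of at least 10, 1 in edgeR, 5 in DESeq2 and 9 with no filter, and 0 to 3 with 1 library left out. The 7 called partner genes became 3, 4, 3 and 13 under the pseudocount of 0.1, the mean of at least 10, edgeR and no filter, 10 in DESeq2, and 1 to 13 with 1 library left out. For other pseudocounts, filters and scalings, and with libraries left out, the share of all features called was not counted. A shift of the whole table cannot be told there from one of the members or partner genes. The cause of these shifts was not tested.

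Signs of small fold changes turned. Adgrg3 was 0.02, and -0.57 in edgeR, -0.59 in DESeq2, -0.022 and -0.012 in those tests with the replicate block, and -0.51 without number 3. Adgrl2 was -0.016 in edgeR, -0.025 in DESeq2, -0.098 without number 1 and -0.093 without number 3, and Adgre5 was 0.005 in edgeR and 0.001 without number 3. Without number 2, Adgrb2 was -0.45, Adgra3 0.13, Adgrl4 -0.14 and Adgra1 -0.14. Without number 3, Adgrb2 was -0.078, Adgrl4 -0.15, Adgrf2 -0.29 and Adgrg1 0.04. With 1 library left out the ranges were -0.56 to 0.42 for Adgra1, -0.38 to 0.22 for Adgra3, -0.66 to 1.26 for Adgrb2, -0.234 to 1.164 for Adgrd1, -0.47 to 0.22 for Adgre5, -0.935 to 0.076 for Adgrg1, -1.07 to 1.10 for Adgrg3, -0.38 to 0.47 for Adgrl2 and -0.55 to 0.86 for Adgrl4. The edgeR and DESeq2 fits with the block were added after seeing the data. With 3 libraries a group, intervals of the low members span both signs, and members with a mean under 10 rest on few reads.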
